A study of Mus musculus with 12 samples.

Results

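The mammalian circadian clock was examined in inflamed mouse colon through 10 genes, 6 of its evening phase and 4 of its morning phase. The evening genes were Dbp, Tef, Nr1d1, Nr1d2, Per2 and Per3, and the morning genes were Arntl, Npas2, Clock and Nfil3. They were found by symbol among 55335 genes, and all 10 were among the 13794 genes with a mean of at least 1 FPKM (fragments per kilobase of transcript, scaled to library size) over the libraries. These genes were selected on the values of these same 12 libraries, in which clock genes had stood out, so their levels and differences are given as a description with no test. Tests are given for other clock genes.

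The RNA was from colons of WT mice, each given a chemical that causes colitis, and made 4 groups of 3 libraries. The groups were DSS colitis with thymopentin, DSS colitis with normal saline, TNBS colitis with thymopentin and TNBS colitis with normal saline. DSS, dextran sulfate sodium, is a polymer toxic to the colon epithelium. TNBS, trinitrobenzene sulfonic acid, is a hapten, a small molecule that makes tissue proteins immunogenic. Thymopentin, written TP5 by the submitters, is a synthetic pentapeptide modelled on the thymic protein thymopoietin. No colon without colitis was analysed here, and the labels give neither the hour at which a colon was taken nor the strain, sex, age, dose or number of animals behind a library. A library is called a colon in what follows, though no label says whether it holds RNA of a single animal or of a pool. In whole tissue, fewer cells of a type and less RNA per cell cannot be told apart.

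The clock of a cell is a feedback loop. CLOCK or its relative NPAS2 pairs with ARNTL (BMAL1), binds E-box sequences and switches on the Per and Cry genes, whose proteins return to block that pair, as well as Nr1d1, Nr1d2, Dbp and Tef. NR1D1 and NR1D2 (REV-ERB alpha and beta) shut off Arntl, Npas2, Clock and Nfil3 through ROR elements, while DBP and TEF activate genes with D-boxes that the repressor NFIL3 also binds. The arms therefore run in opposite phase in most tissues, the intestine among them. Levels of these genes thus depend on the hour of collection, which the labels do not give. A difference in that hour between groups cannot be told apart from an effect of thymopentin or of the colitis model.

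The promoters below show which of these elements lie next to the start of the members. Sequences were those of RefSeq on GRCm38.p6, from 250 bases before to 50 bases after the transcript start. Of the 10 genes, 9 had an entry, with 13 starts among them, and Per2 had none. The E-box was searched as CACGTG, the D-box as TTANGTAA or TTATGNAA and the ROR element as TAGGTCA, on both strands. The E-box, D-box and ROR letters do not overlap each other, and TTATGTAA, as in Per3, meets both D-box patterns. The 5 promoters printed were chosen because they hold the motifs, which stand in capitals. Tef (chr15:81802423-81802722, plus strand) and Per3 (chr4:151044616-151044915, minus strand) are evening genes. Arntl (chr7:113207261-113207560, plus strand) and Nfil3 (chr13:52980990-52981289, minus strand) are morning genes. Ciart (chr3:95882179-95882478, minus strand) encodes a further repressor of the loop.
Tef: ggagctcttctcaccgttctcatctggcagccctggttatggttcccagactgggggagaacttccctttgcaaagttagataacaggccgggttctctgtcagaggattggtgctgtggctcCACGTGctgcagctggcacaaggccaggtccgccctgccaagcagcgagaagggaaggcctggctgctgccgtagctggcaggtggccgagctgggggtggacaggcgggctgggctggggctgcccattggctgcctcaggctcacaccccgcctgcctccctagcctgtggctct
Per3: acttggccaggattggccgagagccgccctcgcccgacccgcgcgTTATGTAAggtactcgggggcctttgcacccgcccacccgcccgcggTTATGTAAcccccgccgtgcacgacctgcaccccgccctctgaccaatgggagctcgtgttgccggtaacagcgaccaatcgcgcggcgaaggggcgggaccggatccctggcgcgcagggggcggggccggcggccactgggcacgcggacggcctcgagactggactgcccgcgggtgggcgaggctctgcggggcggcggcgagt
Arntl: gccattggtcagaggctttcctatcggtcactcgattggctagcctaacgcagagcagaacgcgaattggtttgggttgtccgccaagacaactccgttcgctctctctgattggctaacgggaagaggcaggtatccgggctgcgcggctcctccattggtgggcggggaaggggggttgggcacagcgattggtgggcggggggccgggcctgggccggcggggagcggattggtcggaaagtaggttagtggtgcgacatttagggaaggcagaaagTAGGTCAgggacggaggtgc
Nfil3: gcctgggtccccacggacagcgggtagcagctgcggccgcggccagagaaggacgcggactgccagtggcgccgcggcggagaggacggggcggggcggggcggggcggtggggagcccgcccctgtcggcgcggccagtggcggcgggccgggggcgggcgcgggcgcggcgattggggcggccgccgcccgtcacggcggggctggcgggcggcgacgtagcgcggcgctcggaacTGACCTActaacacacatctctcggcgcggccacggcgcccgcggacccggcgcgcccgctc
Ciart: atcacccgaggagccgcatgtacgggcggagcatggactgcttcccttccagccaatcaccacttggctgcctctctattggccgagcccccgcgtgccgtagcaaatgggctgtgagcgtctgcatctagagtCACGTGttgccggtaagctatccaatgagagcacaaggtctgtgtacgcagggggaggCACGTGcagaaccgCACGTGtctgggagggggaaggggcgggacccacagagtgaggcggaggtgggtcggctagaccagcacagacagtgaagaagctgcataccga

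In this window Tef held an E-box at both of its starts, with its first base at -127 or -138 from the start. Per3 held 2 D-boxes, at -205 and -158. The ROR element stood at +31 in Arntl, at its second start, and at -12 in Nfil3, where it was read on the opposite strand as TGACCTA. Ciart held 3 E-boxes, at -116, -58 and -44. Over all 32851 promoters of the same length, 7.2% held the E-box, 4.7% a D-box and 2.6% the ROR element. The starts of Dbp, Nr1d1, Nr1d2, Npas2 and Clock held none of these letters within the window. A match is a description of the sequence only.

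**Figure D1:**
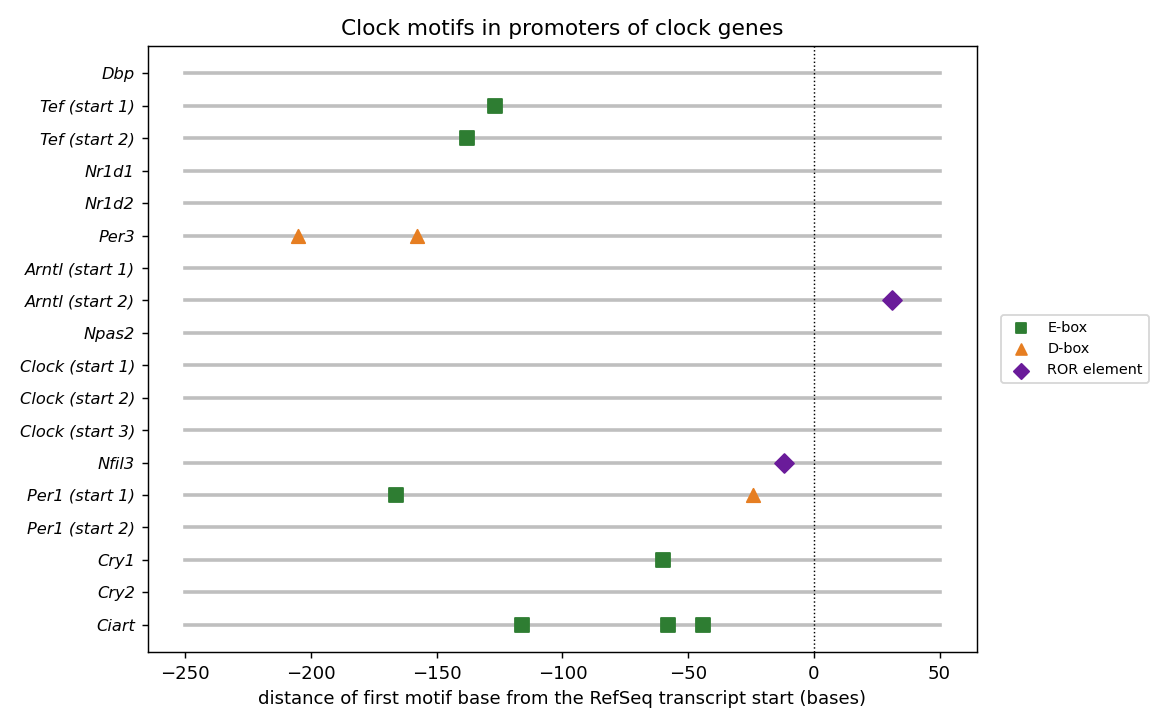
Positions of E-box, D-box and ROR element letters in promoters of clock genes, as the distance in bases of the first motif base from the RefSeq transcript start; each grey line is a promoter of 300 bases. Ciart holds 3 E-boxes, Per3 holds 2 D-boxes, and Arntl and Nfil3 hold a ROR element each.

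In DSS colitis, all 6 evening genes were higher in every thymopentin colon than in every saline colon. Dbp, an activator of clock output genes, held 18.4, 29.7 and 27.6 FPKM in thymopentin colons, against 1.82, 5.53 and 4.53 FPKM in saline colons. Tef, its close relative, held 4.14, 3.70 and 3.75 FPKM with thymopentin and 0.885, 3.26 and 1.67 FPKM with saline. The groups did not overlap for either factor, and the gap was wide for Dbp and narrow for Tef. Dbp averaged 25.2 ± 6.03 FPKM with thymopentin and 3.96 ± 1.92 FPKM with saline (SD, n = 3 each), a ratio of 6.37. The fitted log2 fold change, on the log2(FPKM + 1) scale, was 2.46 ± 0.33 for Dbp and 0.81 ± 0.24 for Tef (SE). For Tef it was 0.53 without DSS saline 1, the library with the least Tef.

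The REV-ERB repressors of the same colons differed less widely but with little spread. Nr1d1 held 44.3, 46.6 and 48.0 FPKM with thymopentin, against 18.2, 20.4 and 22.3 FPKM with saline. Nr1d2 held 17.4, 19.5 and 18.6 FPKM with thymopentin and 8.03, 11.0 and 9.42 FPKM with saline. In both genes the thymopentin colons sat well above the saline colons, and the ratio of means was 2.28 for Nr1d1 and 1.95 for Nr1d2. Log2 fold changes were 1.16 ± 0.39 for Nr1d1 and 0.90 ± 0.14 for Nr1d2. The SE of Nr1d1 takes in the wide spread of that gene in TNBS colons, since all 4 groups share an estimate of the spread. Nr1d1 overlaps Thra on the opposite strand, and no source used here says whether reads were counted by strand.

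The period genes, whose proteins block the CLOCK and ARNTL pair, stood in the same order. Per2 held 13.1, 9.89 and 12.1 FPKM in DSS thymopentin colons, against 3.29, 6.91 and 5.89 FPKM in DSS saline colons. Per3 held 4.10, 7.23 and 6.55 FPKM with thymopentin and 1.93, 2.83 and 1.79 FPKM with saline. Groups were apart for both genes, with log2 fold changes of 1.04 ± 0.20 for Per2 and 1.11 ± 0.23 for Per3.

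Counted over the evening arm, 5 of 6 genes lay under an adjusted p of 0.05 in DSS colitis, with Nr1d1 the exception, where 12.7% of all genes tested were called higher. All 6 had groups that did not overlap, as did 39.8% of all genes. The median log2 fold change of the arm was 1.08, against 0.12 over all genes. Since the members were chosen on these libraries, nothing is read from these counts. The median of all genes moved to -0.01 when libraries were rescaled by median ratios and to 0.02 with quantile normalization, and the share of called genes that were higher moved from 74.7% to 44.0% and 52.5% under these scalings. Every member kept its direction in DSS colitis under both scalings.

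In TNBS colitis the evening genes were also higher with thymopentin on average, but the levels were lower than in DSS thymopentin colons. Dbp held 3.44, 2.64 and 1.15 FPKM in TNBS thymopentin colons, against 0.952, 0.836 and 0.624 FPKM in TNBS saline colons. Tef held 3.11, 1.91 and 2.43 FPKM with thymopentin and 1.34, 1.16 and 0.936 FPKM with saline. The groups were apart for both, and the third thymopentin colon held the least Dbp of its group. Log2 fold changes were 0.86 ± 0.33 for Dbp and 0.69 ± 0.24 for Tef, and the value for Dbp was 1.36 with a pseudocount of 0.1.

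Nr1d1 held 32.8, 20.4 and 11.1 FPKM with thymopentin in TNBS colitis, against 9.69, 14.2 and 4.39 FPKM with saline. Here the groups overlapped, since the third thymopentin colon lay below the second saline colon. Nr1d2 held 12.9, 10.2 and 10.6 FPKM with thymopentin and 7.73, 8.88 and 6.16 FPKM with saline, and did not overlap. The log2 fold changes were 1.11 ± 0.39 for Nr1d1 and 0.52 ± 0.14 for Nr1d2. Without TNBS saline 3, the colon with the least Nr1d1 of all 12, the value for Nr1d1 was 0.69.

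Per2 held 6.38, 6.97 and 4.99 FPKM in TNBS thymopentin colons, against 4.20, 4.19 and 3.90 FPKM in TNBS saline colons. Per3 held 3.36, 2.54 and 2.77 FPKM with thymopentin and 1.71, 2.35 and 0.891 FPKM with saline. Neither gene overlapped between groups, although the lowest thymopentin and highest saline colons lay close together. Log2 fold changes were 0.47 ± 0.20 for Per2 and 0.59 ± 0.23 for Per3, and the value for Per3 was 0.36 without TNBS saline 3.

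Of the evening arm in TNBS colitis, 0 of 6 genes lay under the threshold, where 0.283% of all genes tested were called higher and 0.384% lower. Groups did not overlap for 5 of 6, as for 18.8% of all genes, and the median log2 fold change was 0.64, against 0.03 over all genes.

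**Figure D2:**
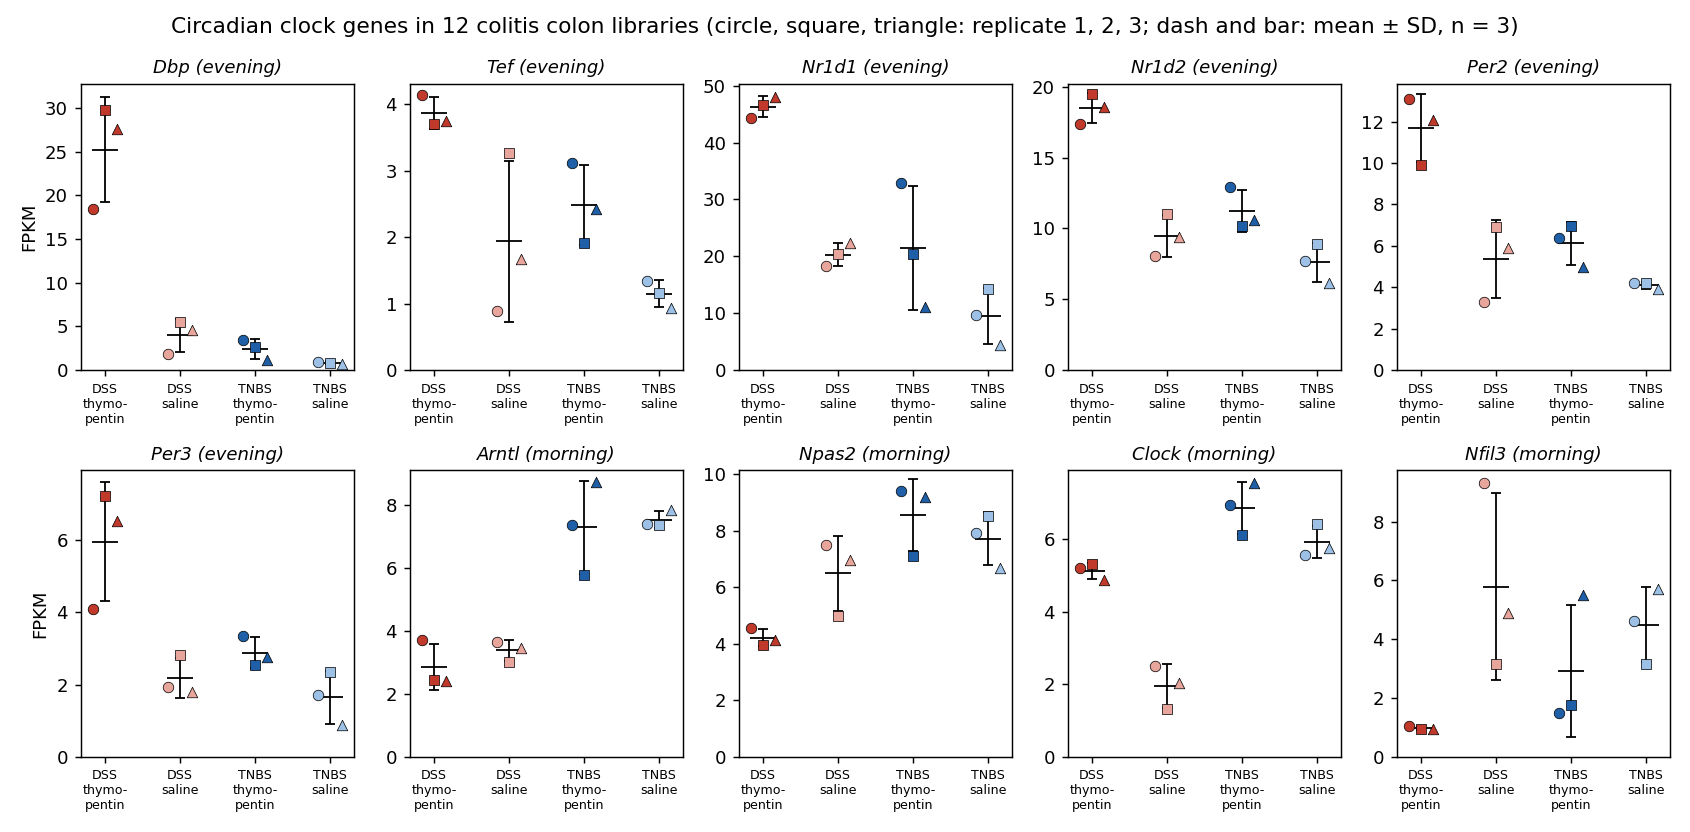
FPKM of the 10 clock genes in each of 12 colon libraries, by group; circles, squares and triangles are replicates 1, 2 and 3, and dashes with bars are means ± SD (n = 3). DSS thymopentin colons hold the highest levels of all 6 evening genes, with Dbp between 18.4 and 29.7 FPKM.

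The morning genes differed from each other in direction. In DSS colitis, Nfil3, the repressor that competes with DBP and TEF at D-boxes, held 1.05, 0.948 and 0.939 FPKM with thymopentin, against 9.31, 3.15 and 4.89 FPKM with saline. Npas2 held 4.56, 3.96 and 4.14 FPKM with thymopentin and 7.50, 4.99 and 6.98 FPKM with saline. Both were lower in every thymopentin colon, with mean levels at 0.169 of the saline mean for Nfil3 and 0.651 for Npas2. Their log2 fold changes were -1.67 ± 0.39 and -0.51 ± 0.15, in the order Nfil3 and Npas2.

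Clock went the other way. It held 5.20, 5.31 and 4.88 FPKM in DSS thymopentin colons, against 2.5, 1.32 and 2.03 FPKM in DSS saline colons, a log2 fold change of 1.08 ± 0.14. Arntl, the partner of CLOCK, held 3.70, 2.45 and 2.40 FPKM with thymopentin and 3.65, 3.01 and 3.46 FPKM with saline. Its groups overlapped, and its log2 fold change was -0.20 ± 0.15. Of the 4 morning genes, 1 was under the threshold and higher and 2 were under it and lower, where 4.3% of all genes tested were called lower in DSS colitis. Nothing is read from these counts either.

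In TNBS colitis every morning gene overlapped between the groups. Nfil3 held 1.49, 1.76 and 5.49 FPKM with thymopentin, against 4.63, 3.16 and 5.69 FPKM with saline. Npas2 held 9.41, 7.11 and 9.20 FPKM with thymopentin and 7.92, 8.54 and 6.70 FPKM with saline. The third thymopentin colon had as much Nfil3 as saline colons, while the other two lay below all 3 of them. Clock held 6.95, 6.11 and 7.54 FPKM with thymopentin, against 5.57, 6.41 and 5.77 FPKM with saline. Arntl held 7.36, 5.78 and 8.72 FPKM with thymopentin and 7.38, 7.36 and 7.83 FPKM with saline. Log2 fold changes were -0.61 ± 0.39 for Nfil3, 0.13 ± 0.15 for Npas2, 0.18 ± 0.14 for Clock and -0.06 ± 0.15 for Arntl, and 0 of 4 lay under the threshold. Arntl had a value of 0.08 without TNBS thymopentin 2. Nfil3 had a value of -0.35 without TNBS thymopentin 1 and -1.04 without TNBS thymopentin 3, and Npas2 lay between 0.04 and 0.25 with single libraries left out.

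Responses to thymopentin were set against each other as the log2 fold change in DSS colitis minus that in TNBS colitis. For Dbp the difference was 1.60 ± 0.47 (SE) and for Per2, Per3 and Nr1d2 it was 0.57 ± 0.29, 0.52 ± 0.33 and 0.38 ± 0.20. For Tef and Nr1d1 it was 0.12 ± 0.35 and 0.05 ± 0.55, within their errors, and the sign turned when single libraries were left out and, for Nr1d1, under both scalings (-0.07). Without DSS saline 1 the difference was 0.31 for Per2, and without TNBS saline 2 it was 0.34 for Per3. For Clock it was 0.89 ± 0.19, and 1 of 10 members, Clock, lay under the threshold, where 5.15% of all genes tested were called in either direction. Nothing is read from this count. Without DSS saline 2, the colon with the least Clock, the difference was 0.73, and no member was under the threshold with no filter, after either rescaling or without any 1 of 8 of the 12 libraries (0 in each case). At a filter of 5 FPKM Clock was not tested. Of all genes called here 53.0% were more positive in DSS colitis, against 41.1% after quantile normalization and 33.8% after median-ratio rescaling. Npas2, Nfil3 and Arntl had differences of -0.64 ± 0.21, -1.07 ± 0.55 and -0.14 ± 0.21. Without TNBS thymopentin 3 the difference was -0.63 for Nfil3 and -0.02 for Arntl.

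**Figure D3:**
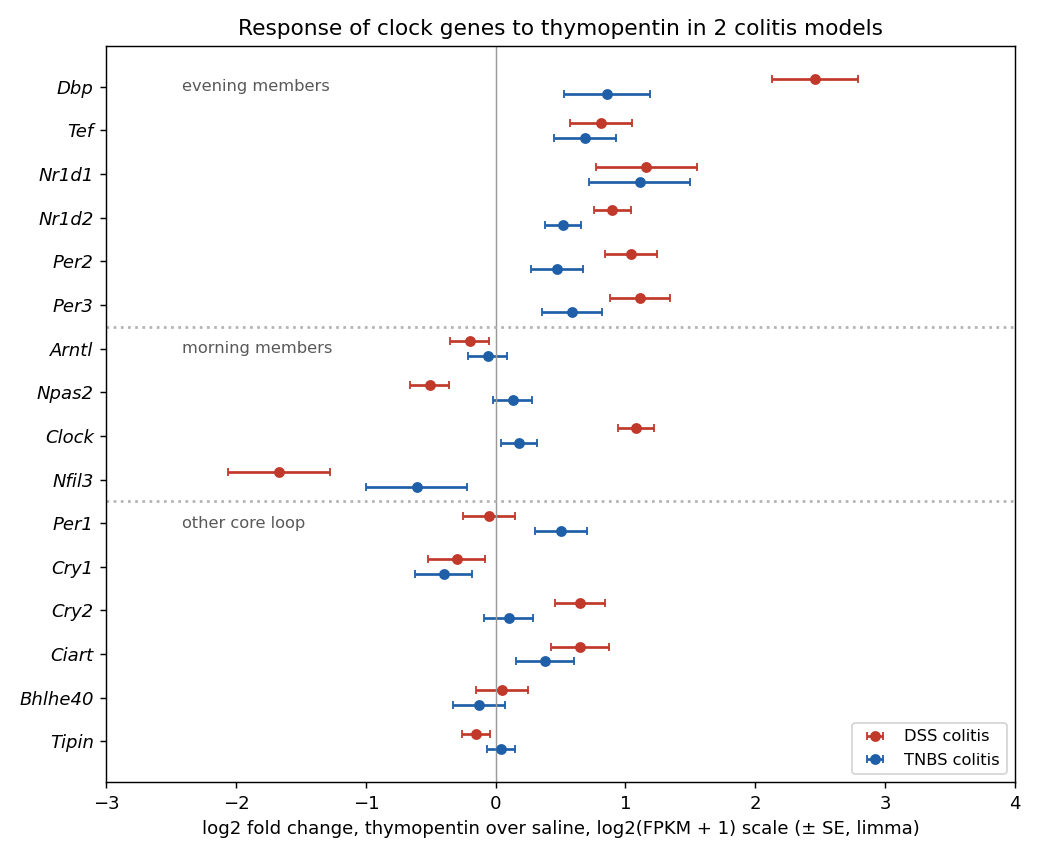
Log2 fold change of clock genes, thymopentin over saline, with its SE from the limma fit, in DSS colitis (red) and TNBS colitis (blue). Evening genes lie to the right of 0 in both models, Dbp furthest in DSS colitis at 2.46; Nfil3 lies left of 0, and Clock lies right of 0 mainly in DSS colitis.

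The colitis models were also set against each other within each treatment. Under saline, Dbp averaged 3.96 ± 1.92 FPKM in DSS colons and 0.804 ± 0.166 FPKM in TNBS colons (SD, n = 3 each), and Nr1d1 averaged 20.3 ± 2.03 FPKM in DSS colons and 9.44 ± 4.93 FPKM in TNBS colons. Arntl averaged 3.37 ± 0.325 FPKM in DSS colons and 7.52 ± 0.265 FPKM in TNBS colons, and Clock averaged 1.95 ± 0.594 FPKM in DSS colons and 5.92 ± 0.438 FPKM in TNBS colons. These were the 4 members under the threshold under saline, 2 evening genes that were higher and 2 morning genes that were lower, where 15.2% of all genes tested were called higher and 31.5% lower. A share of 4 in 10 is close to that over all genes, and nothing is read from it. Log2 fold changes were 1.38 ± 0.33 for Dbp, 1.15 ± 0.39 for Nr1d1, -0.96 ± 0.15 for Arntl and -1.25 ± 0.14 for Clock. The share of called genes that were higher, 32.5%, was 50.9% after median-ratio rescaling and 43.0% after quantile normalization, where the median of all genes moved from -0.14 to 0 and -0.05.

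Under thymopentin, Dbp averaged 25.2 ± 6.03 FPKM in DSS colons and 2.41 ± 1.16 FPKM in TNBS colons, a ratio of 10.5, and Nr1d1 averaged 46.3 ± 1.89 FPKM in DSS colons and 21.4 ± 10.9 FPKM in TNBS colons. Of the evening genes, 5 of 6 were under the threshold and higher, with Tef the exception, where 11.0% of all genes tested were called higher. Of the morning genes, Npas2 and Arntl, 2 of 4, were under it and lower, where 16.5% of all genes were called lower. Log2 fold changes were 2.98 ± 0.33 for Dbp, -0.87 ± 0.15 for Npas2 and -1.11 ± 0.15 for Arntl. Nothing is read from these counts. For Tef the ratio of DSS to TNBS means was 1.55 under thymopentin and 1.70 under saline, and for Nr1d1 it was 2.16 and 2.15. Median-ratio rescaling moved the share of called genes that were higher from 40.1% to 50.9%.

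Markers of other cell types differed between the models as well. Under saline, 5 T cell markers summed to between 19.6 and 29.3 FPKM in DSS colons and between 1.96 and 11.2 FPKM in TNBS colons, and 4 of 5 were called higher. The 5 macrophage markers summed to between 120 and 141 FPKM in DSS colons and between 29.8 and 61.3 FPKM in TNBS colons, and 5 of 5 were called higher. Of the smooth muscle markers 5 of 6 were called higher in DSS colons, of the fibroblast markers 4 of 5, and of the tested neuron and glia markers 4 of 4, while 4 of 7 epithelium markers were called lower. Over all genes tested, 15.2% were called higher and 31.5% lower. Under thymopentin the T cell sum lay between 15.5 and 21.9 FPKM in DSS colons and between 0.972 and 5.24 FPKM in TNBS colons, and the macrophage sum between 91.3 and 99.2 FPKM in DSS colons and between 29.7 and 49.8 FPKM in TNBS colons. Of the smooth muscle markers 0 of 6 were called by limma under thymopentin. Of 4 markers of position along the colon, 1 was called higher in DSS colons under saline and 1 lower. These were Hoxd13 (ratio of means 10.6, limma adjusted p = 0.00274) and Fabp2 (0.112, adjusted p = 0.0181). Under thymopentin 1 was called higher, Hoxd13 again (10.3, limma adjusted p = 0.00601), and 0 lower. The shares over all genes there were 11.0% and 16.5%. The part of these cell types or of position along the colon in the clock gene differences was not tested.

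The order of the 4 groups was alike across the evening arm. For all 6 evening genes DSS thymopentin colons had the highest mean and were apart from the next group, and TNBS saline colons had the lowest mean. The DSS saline and TNBS thymopentin groups, which lay between, overlapped for every evening gene. From the highest to the lowest group mean the ratio was 31.4 for Dbp, 4.90 for Nr1d1, 3.61 for Per3, 3.38 for Tef, 2.86 for Per2 and 2.44 for Nr1d2. Morning genes had no such shared order. Arntl was lower in every DSS colon than in every TNBS colon, and within each model thymopentin and saline colons overlapped. Clock was lowest in DSS saline colons and Nfil3 highest there, though Nfil3 overlapped among DSS saline, TNBS saline and TNBS thymopentin in that order.

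An index per library was taken as the mean, over the genes of an arm, of the deviation of log2(FPKM + 1) from that gene's mean over the 12 libraries. The evening index averaged 1.07 ± 0.11 in DSS thymopentin colons, -0.18 ± 0.35 in DSS saline colons, -0.09 ± 0.30 in TNBS thymopentin colons and -0.80 ± 0.28 in TNBS saline colons (SD, n = 3 each). The morning index averaged -0.50 ± 0.10 in DSS thymopentin colons, -0.17 ± 0.33 in DSS saline colons, 0.29 ± 0.30 in TNBS thymopentin colons and 0.38 ± 0.04 in TNBS saline colons. The ratio of Dbp to Arntl within a library does not depend on the scaling of the libraries. It was 4.97, 12.1 and 11.5 in DSS thymopentin colons, 0.498, 1.83 and 1.31 in DSS saline colons, 0.468, 0.457 and 0.132 in TNBS thymopentin colons and 0.129, 0.114 and 0.0797 in TNBS saline colons. Dbp exceeded Arntl in all 3 DSS thymopentin colons and in 2 of 3 DSS saline colons, and in no TNBS colon.

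**Figure D4:**
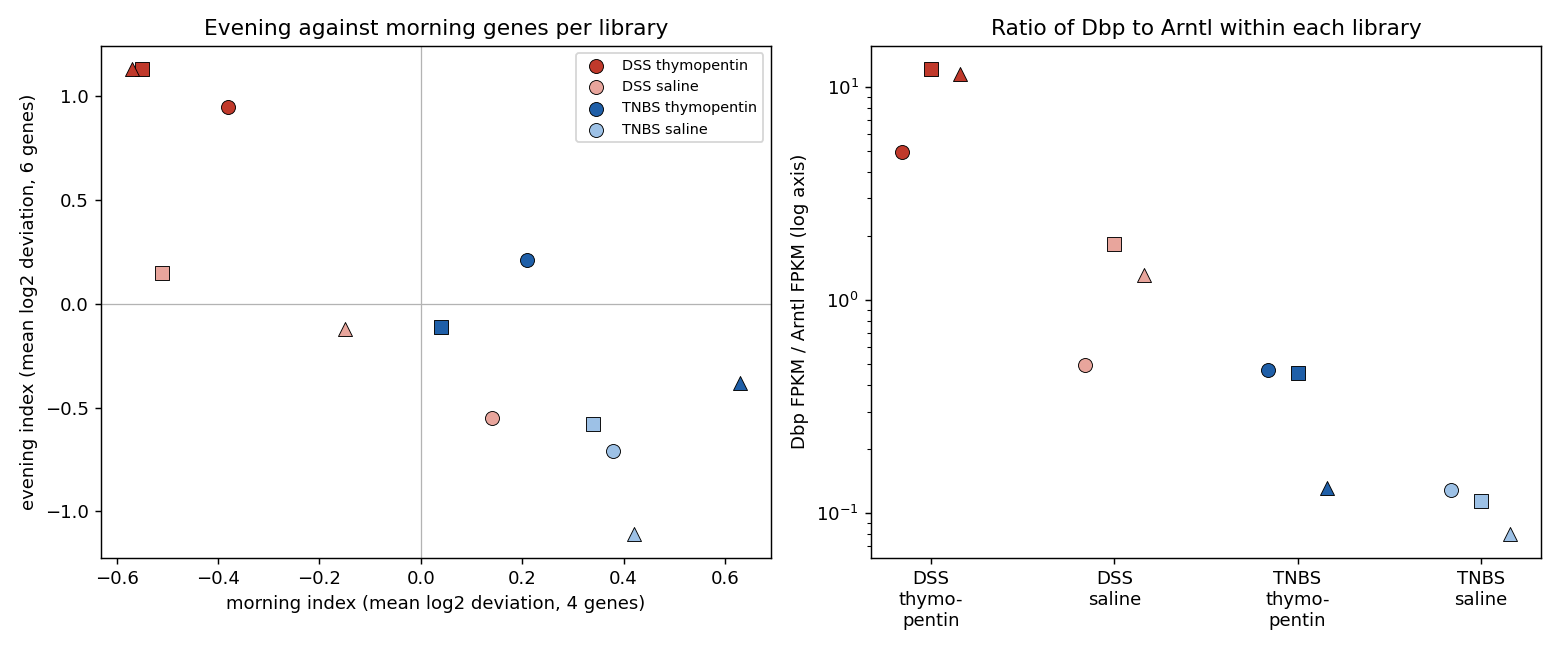
Left, evening index against morning index for each of the 12 libraries (mean log2 deviation from the gene's mean over libraries); right, ratio of Dbp to Arntl FPKM within each library on a log axis; circles, squares and triangles are replicates 1, 2 and 3. DSS thymopentin colons lie at the top left with ratios from 4.97 to 12.1, and TNBS saline colons at the bottom right with ratios from 0.0797 to 0.129.

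Within some groups, libraries differed along this evening and morning axis, though not for every gene. Among DSS saline colons, the first held the least Dbp, Tef, Nr1d1, Nr1d2 and Per2 and the most of all 4 morning genes, Nfil3 at 9.31 FPKM included. The second held the least of all 4 morning genes. Among TNBS thymopentin colons, the third held the least Dbp, Nr1d1 and Per2 and the most Arntl, Clock and Nfil3, but the second held the least Tef, Nr1d2 and Per3. Among DSS thymopentin colons the evening genes split. The first held the least Dbp, Nr1d1, Nr1d2 and Per3 but the most Tef and Per2. TNBS saline 3 held the least of every evening gene in its group, with an evening index of -1.11. Between the 15 pairs of evening genes, the correlation over the 12 libraries had a median of 0.88, and of 0.60 after the group means were removed, with 15 of 15 positive in both cases. After that removal the lowest was 0.06, between Per2 and Per3. Between the 24 evening and morning pairs the medians were -0.63 and -0.46, with 4 and 2 positive. The 6 morning pairs had medians of 0.48 and 0.59. These correlations describe 12 libraries that share their groups, their scaling and their depth.

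Marker RNA of several cell types also differed between thymopentin and saline colons. In DSS colitis, summed FPKM of 6 smooth muscle markers lay between 1241 and 1885 with thymopentin and between 2856 and 3403 with saline. Each of the 6 was lower in every thymopentin colon, and 3 passed limma's test. Over all genes tested, groups did not overlap for 39.8%, and 4.3% were called lower. The sum of 5 neuron and glia markers lay between 9.90 and 17.2 with thymopentin and between 20.8 and 28.9 with saline, and that of 5 macrophage markers between 91.3 and 99.2 with thymopentin and between 120 and 141 with saline. All 3 sums were lower in every thymopentin colon. By limma 0 of 5 macrophage markers were called, and 3 of 4 tested neuron and glia markers were called lower. The sum of 7 epithelium markers overlapped, between 3546 and 4163 with thymopentin and between 3344 and 4022 with saline, but 2 of the 7, the adhesion genes Cdh1 and Epcam, rose. Another, Car1, was lower in every thymopentin colon, at 172, 151 and 146 FPKM, against 173, 230 and 268 FPKM with saline. Car1 did not pass limma's test (adjusted p = 0.488). Cdh1 held 226, 202 and 174 FPKM with thymopentin and 144, 150 and 161 FPKM with saline, and Epcam held 859, 763 and 716 FPKM with thymopentin and 496, 602 and 634 FPKM with saline (limma adjusted p = 0.031 and 0.0315, and 0.075 and 0.0749 with the replicate block). The 4 neutrophil markers summed to between 0.554 and 1.26 with thymopentin, where S100a9 and Cxcr2 were listed at 0 in all 3 colons, and to between 5.06 and 9.53 with saline. Hoxb13, a homeobox gene of the hindgut, held 122, 109 and 104 FPKM in DSS thymopentin colons, against 52.8, 59.9 and 65.4 FPKM in DSS saline colons. These groups did not overlap, but Hoxb13 did not pass limma's test (log2 fold change 0.91 ± 1.11, adjusted p = 0.606). Hoxd13, a further homeobox gene, overlapped between the same groups (limma adjusted p = 0.246). Of 4 markers of position along the colon, these genes included, 0 were called higher and 0 lower in DSS colitis.

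In TNBS colitis, 5 fibroblast markers summed to between 87.5 and 109 FPKM with thymopentin and between 60.7 and 67.5 FPKM with saline, and 5 of 5 were higher in every thymopentin colon. Groups did not overlap for 18.8% of all genes tested. The neuron and glia sum was likewise higher, between 9.86 and 18.2 with thymopentin and between 6.29 and 7.87 with saline. The neutrophil sum was lower, between 0.236 and 1.0 with thymopentin and between 1.87 and 8.41 with saline. By limma 1 of 5 fibroblast markers was called higher, where 0.283% of all genes tested were called higher. Of the tested markers, 0 of 4 for neuron and glia and 0 of 2 for neutrophils were called. TNBS saline 3 held 0.722 FPKM of Hoxb13, against 50 and 86.9 FPKM in the other two saline colons, and TNBS thymopentin 3 held 49.4 FPKM, against 89.8 and 87.4 FPKM in the other two thymopentin colons. Each was also the colon with the most Fabp2, a fatty acid carrier of enterocytes, in its group, at 454 and 242 FPKM. These are the same colons that held the least Dbp of their groups. The DSS groups did not repeat this. The first DSS thymopentin colon held the least Dbp of its group but the most Hoxb13, at 122 FPKM. The first DSS saline colon held the least Dbp and the least Hoxb13 of its group. It did not hold the most Fabp2, at 27.8 FPKM, against 34.2 FPKM in the second. The part of tissue makeup or position along the colon in the clock gene differences was not tested.

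Outside the members, the core loop was represented by 12 genes, of which 7 were tested. With thymopentin in DSS colitis, 12.7% of all genes tested were called higher and 4.3% lower. In DSS colitis Cry2, a repressor that joins the PER proteins, rose with thymopentin. It held 3.11, 4.91 and 3.63 FPKM with thymopentin, against 1.42, 2.45 and 2.51 FPKM with saline, a log2 fold change of 0.65 ± 0.19 (limma adjusted p = 0.0399). Every thymopentin colon was above every saline colon, but the call ended with no filter, under both scalings and without each of 6 of the 12 libraries, with adjusted p up to 0.133 without DSS thymopentin 2 (0.5 on the log2 scale). Ciart, whose promoter is printed above, held 1.66, 2.97 and 3.11 FPKM with thymopentin and 0.721, 1.99 and 1.20 FPKM with saline. The log2 fold change of Ciart was 0.65 ± 0.22 (limma adjusted p = 0.0687), and a fit with the replicate number as a block gave an adjusted p of 0.0274. Without DSS thymopentin 1 or DSS saline 2, its limma adjusted p was 0.0356 or 0.0275.

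Cry1, Per1, Bhlhe40 and Tipin did not pass in DSS colitis. Cry1, the other cryptochrome, held 3.84, 3.37 and 3.23 FPKM with thymopentin, against 4.59, 3.99 and 4.98 FPKM with saline (log2 fold change -0.30 ± 0.22, limma adjusted p = 0.378), without overlap. Per1, the period gene that glucocorticoids also induce, held 5.65, 4.15 and 5.13 FPKM with thymopentin and 4.50, 5.34 and 5.64 FPKM with saline (-0.05 ± 0.20, limma adjusted p = 0.894). Its groups overlapped throughout, unlike those of Per2 and Per3. Bhlhe40, a repressor at E-boxes, had a log2 fold change of 0.05 ± 0.20. Its sign turned under both scalings, at -0.06 and -0.10.

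In TNBS colitis 0 of these 7 genes passed limma's test, and 1, Per1, had an unadjusted p under 0.05 (0.50 ± 0.20, adjusted p = 0.328). Per1 held 4.75, 3.12 and 6.26 FPKM with thymopentin and 3.19, 3.48 and 2.26 FPKM with saline, with overlap. Ciart held 0.890, 0.979 and 0.533 FPKM with thymopentin, against 0.308, 0.556 and 0.277 FPKM with saline. The third thymopentin colon was again the lowest of its group, below the second saline colon. For the difference between models, 0 of 7 passed limma's test and 0 had an unadjusted p under 0.05.

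Below the filter lay Hlf, Rora, Rorb, Bhlhe41 and Timeless. Hlf, the third factor of the DBP and TEF family, held 0.976, 0.772 and 0.889 FPKM in DSS thymopentin colons and 0.570, 0.830 and 1.08 FPKM in DSS saline colons. It held 0.317, 0.234 and 0.349 FPKM in TNBS thymopentin colons and 0.105, 0.135 and 0.143 FPKM in TNBS saline colons. These groups overlapped in DSS colitis and were apart in TNBS colitis. Rora and Bhlhe41 stayed between 0.0338 and 1.16 FPKM in all 12 colons.

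Between the models, 4 of the 7 genes passed under saline, where 15.2% of all genes tested were called higher and 31.5% lower. Nothing is read from this count. Ciart and Per1 were higher in DSS colons, by 0.71 ± 0.22 and 0.64 ± 0.20 on the log2 scale (limma adjusted p = 0.0238 and 0.0227). Cry1 averaged 4.52 ± 0.5 FPKM in DSS saline colons and 10.1 ± 3.11 FPKM in TNBS saline colons (SD, n = 3 each), a log2 fold change of -0.97 ± 0.22 (limma adjusted p = 0.00543). Cry2 was lower by the same test (-0.64 ± 0.19, adjusted p = 0.0169). Cry1 peaks later than other E-box genes in many tissues. Under thymopentin Ciart remained higher (0.97 ± 0.22, limma adjusted p = 0.0105) and Cry1 lower (-0.87 ± 0.22, adjusted p = 0.0175). Leaving out single libraries ended the saline calls of Ciart, Per1 and Cry2 (adjusted p up to 0.0852, 0.0836 and 0.0643) and the thymopentin call of Cry1 (up to 0.0618).

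Among 16 tested enzymes that modify or degrade clock proteins, 1 passed for thymopentin in DSS colitis. Over all genes tested, 12.7% were called higher there and 4.3% lower. Csnk2a1, a catalytic subunit of casein kinase 2, averaged 17.3 ± 1.16 FPKM with thymopentin and 14.4 ± 1.09 FPKM with saline (SD, n = 3 each). Its log2 fold change was 0.25 ± 0.08 (limma adjusted p = 0.0495), which became 0.10 (adjusted p = 0.403) after median-ratio rescaling and had an adjusted p of 0.121 with the replicate block. By limma 0 of 16 passed in TNBS colitis, where 2, Nampt (lower) and Usp2 (higher), had an unadjusted p under 0.05. Between models under saline, 1 of the 16 was higher and 7 were lower in DSS colons, beside 15.2% and 31.5% of all genes tested. The higher gene was Usp2, a deubiquitinase that cycles in many tissues (0.64 ± 0.11, limma adjusted p = 0.00101), and the lower ones included Prkaa1 and Prkaa2, the catalytic subunits of AMPK (-1.06 ± 0.15 and -1.40 ± 0.19). The others were Fbxw11, a ubiquitin ligase subunit for PER proteins, at -0.80 ± 0.10, the PER kinase Csnk1d at -0.60 ± 0.10, and Ddb1, Usp7 and Csnk2a1 at -0.75 ± 0.09, -0.51 ± 0.12 and -0.42 ± 0.08. Under thymopentin Usp2 was again higher (0.59 ± 0.11) and 5 of these, Fbxw11, Ddb1, Csnk1d, Prkaa1 and Prkaa2, were again lower, between -0.99 and -0.56 on the log2 scale. There 11.0% of all genes tested were called higher and 16.5% lower.

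Of 21 genes that cycle in many mouse organs, 2 rose and 1 fell with thymopentin in DSS colitis, 18 did not pass, and the median log2 fold change was -0.06, against 0.12 over all genes. The shares of all genes tested that were called were 12.7% higher and 4.3% lower. Wee1, a cell cycle kinase driven through E-boxes, averaged 2.11 ± 0.320 FPKM with thymopentin and 0.928 ± 0.400 FPKM with saline (SD, n = 3 each; 0.70 ± 0.18, limma adjusted p = 0.0269). Abcb1a, a drug efflux pump controlled by DBP family factors in mouse intestine, averaged 47.4 ± 8.70 FPKM with thymopentin and 21.7 ± 3.5 FPKM with saline (1.09 ± 0.25, limma adjusted p = 0.0183). Fkbp5, a glucocorticoid-induced chaperone, fell to 3.90 ± 0.447 FPKM with thymopentin, against 8.13 ± 2.81 FPKM with saline (-0.85 ± 0.22, limma adjusted p = 0.0262, and 0.0586 with the replicate block). Leaving out single DSS libraries ended each of these 3 calls, with adjusted p up to 0.0962 for Wee1, 0.0607 for Abcb1a and 0.0933 for Fkbp5. In TNBS colitis 0 of 21 passed limma's test, and 9 had an unadjusted p under 0.05. Of these, Abcb1a, Dtx4, Klf9, Tspan4 and Usp2 were higher with thymopentin, and Alas1, Klf10, Nampt and Pdk4 were lower. The share of all genes under that unadjusted cut is not reported here, and nothing is read from the count. Between models under saline, 2 of the 21 were higher in DSS colons, Tspan4 and Usp2, and 6 were lower, Abcb1a (-1.94 ± 0.25), Wee1 (-1.15 ± 0.18), Alas1, Por, Cdkn1a and Leo1. For all genes tested these shares were 15.2% higher and 31.5% lower. Under thymopentin Tspan4 and Usp2 were again higher, and Slc9a3 (-2.91 ± 0.59), Abcb1a, Fkbp5, Wee1 and Leo1 were lower, where the shares over all genes were 11.0% and 16.5%. Under saline the call of Leo1 ended under both scalings (adjusted p = 0.116 and 0.138) and without TNBS saline 3 or DSS saline 2, and that of Cdkn1a under median-ratio rescaling (0.0657). Under thymopentin the calls of Wee1, Leo1 and Tspan4 ended without single libraries (adjusted p up to 0.107, 0.0701 and 0.0508), and that of Wee1 also with no filter (0.0689).

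Of 8 tested genes induced by glucocorticoids, hormones that also cycle daily, Fkbp5 was the 1 that passed in DSS colitis. In TNBS colitis 0 passed limma's test, and 2, Klf9 and Per1, had an unadjusted p under 0.05, both higher with thymopentin. In DSS colitis 12.7% of all genes tested were called higher and 4.3% lower. Between models, Errfi1 was lower in DSS colons under saline (-0.65 ± 0.24) and thymopentin (-0.74 ± 0.24), and Sgk1 under thymopentin (-1.63 ± 0.48). The Errfi1 calls ended with no filter, under both scalings and without single libraries (adjusted p up to 0.173 under saline and 0.151 under thymopentin), and that of Sgk1 with no filter and without single libraries (up to 0.104). Among the targets named for REV-ERB, Il6 was below the filter. Ccl2, which draws monocytes, fell to 1.23 ± 0.188 FPKM with thymopentin in DSS colitis, against 4.46 ± 2.43 FPKM with saline (SD, n = 3 each; -1.19 ± 0.35, limma adjusted p = 0.0414). This call ended without single libraries (adjusted p up to 0.124, without DSS saline 1) and with a pseudocount of 0.1 (0.064). Under saline Ccl2 was higher in DSS than in TNBS colons (1.10 ± 0.35, limma adjusted p = 0.0242), a call that also ended without single libraries (up to 0.0944).

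The genes most like the evening arm were sought among 6293 genes with a mean of at least 5 FPKM, by Pearson correlation of log2(FPKM + 1) with the evening index over 12 libraries. Members and listed clock genes were left out of this ranking. The highest of the rest was Zkscan3, a zinc finger repressor, at 0.97, and 0.84 after the group means were removed. It averaged 21.1 ± 1.94, 12.6 ± 1.01, 12.8 ± 1.12 and 10.8 ± 1.29 FPKM in DSS thymopentin, DSS saline, TNBS thymopentin and TNBS saline colons (SD, n = 3 each). Sned1 and Selenbp1 followed at 0.93, then Eif3h, Ppia and Rpl13a at 0.92, and without the group means these came to 0.26, 0.64, 0.81, 0.49 and 0.75. Ppia and Rpl13a have many near-identical pseudogene copies, so their values are uncertain. Most opposite were Duox2, Isx and Ddah1 at -0.90 and Gstk1, Mgat4c and Plet1 at -0.89. Without the group means these 6 lay between -0.53 and -0.14. These values share the groups, the libraries and their scaling, and are a description.

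In the authors' deposited table for DSS colitis, which holds selected genes, 6 of the 10 members appeared. Their deposited log2 fold changes were 2.65 for Dbp, 1.30 for Per3, 1.06 for Nr1d1, 1.05 for Per2, 1.31 for Clock and -2.53 for Nfil3. In the authors' deposited table for TNBS colitis, Dbp at 1.39 and Tef at 1.04 appeared, beside Hlf at 1.13 (deposited FDR 0.0228) and Ciart at 1.01 (deposited FDR 0.247). Both tables rest on the libraries on which the members were chosen, so nothing is read from which members appeared. The share of all genes that these tables hold is not reported here. Read counts could be recovered only for genes in these deposited tables, in the model that each table covers. Arntl, Npas2 and Nr1d2 were in neither table. Dbp rested on 2106, 2874 and 3326 reads in DSS thymopentin colons and 229, 642 and 524 in DSS saline colons, and on 431, 311 and 140 reads in TNBS thymopentin colons and 125, 94 and 85 in TNBS saline colons. Nfil3 rested on 82, 63 and 77 reads in DSS thymopentin colons and 787, 247 and 382 in DSS saline colons. The sources used here do not state total reads per library, and summed FPKM lay between 384431 and 532510.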

How the data were processed

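Total RNA of mouse colon was sequenced by the submitters as 12 strand-specific libraries, per the labels' protocols. The authors deposited FPKM for all genes, with STAR 2.5, Cuffnorm, DESeq 1.22.1 and the build mm9 named, without roles, in the submitters' processing notes; no source used here names the annotation. Other deposited tables cover selected genes, and per the file headers their columns give log2 fold changes with p-value and FDR. The deposited per-library log2 columns of those tables, raised from the log2 scale, gave whole reads within 0.01 for the low values.

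Here, genes with a mean of at least 1 FPKM were fitted by limma 3.58.1 in R 4.3.3 on log2(FPKM + 1), a scale that understates changes of low genes, with 4 group means in 1 model, 8 residual degrees of freedom and a trended prior. Two-sided p-values were adjusted by Benjamini-Hochberg over all genes tested within each comparison, with calls made below an adjusted p of 0.05. For an unadjusted p under 0.05 the share of all genes is not reported here, so nothing is read from counts at that cut. An exact permutation test of 3 against 3 cannot give a p below 0.1 and was not used. The fit was tested on simulated data. Groups and replicate numbers came from treatment labels and titles; no label says what a library was drawn from, so p-values measure the spread between these libraries.

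The members, gene lists and tests were chosen with earlier results of these data known. Named genes are the members, listed genes that passed, a fixed set of core loop genes, and the 6 genes most like and most unlike the evening index; the values of some listed genes are not reported here. Hoxb13, Hoxd13, Fabp2 and Car1 were picked after their values were seen. Deviations of same-numbered TNBS libraries from their group means correlated at 0.124, 0.268 and 0.476. TNBS thymopentin 1 correlated more with TNBS saline 2 (0.287), so these values do not settle whether the numbers pair libraries. A fit with the replicate as a block was run as an alternative. Alternatives changed the pseudocount, filter, scaling and block, or left out a library. Python 3.11.15, pandas 2.3.3, numpy 2.4.6 and matplotlib 3.10.9 were used.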

Additional observations from a re-analysis of the deposited data

Results flagged for a closer look

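For Clock, the fitted response to thymopentin differed between the colitis models, with a DSS minus TNBS difference of 0.89 on the log2 scale in the fit across all genes. It held 5.20, 5.31 and 4.88 FPKM in DSS thymopentin colons, against 2.5, 1.32 and 2.03 FPKM in DSS saline colons, where in TNBS colitis the groups overlapped. As a member chosen on these libraries it is given as a description from which nothing is read, and no member was under the threshold for this difference with no filter, after either rescaling or without any 1 of 8 of the 12 libraries.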

How the results depend on the processing

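No named gene outside the members that passed a test turned its direction in any alternative. In DSS and under thymopentin all 10 members kept their sign in every alternative; in TNBS and between models under saline 9 did (not Arntl and Nfil3, in that order), and for the difference of responses 8 did (not Tef and Nr1d1). With no filter, genes called were 44 in TNBS (92 as reported) and 355 for the difference (710), no other core clock gene was called in DSS (0, against 1) and no member for the difference (0, against 1). With a filter at a mean of 5 FPKM, which tests fewer members, genes called were 1447 in DSS (2346), 385 for the difference and 3661 between models under saline (6431). The same filter called 4 members in DSS (8), 0 for the difference, 0 other core clock genes in DSS, and 1 between models under saline (4) and 1 under thymopentin (2). Quantile normalization and median-ratio rescaling each called 0 other core clock genes in DSS and 0 members for the difference. The causes were not tested.

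With the replicate block, 2 other core clock genes, Cry2 and Ciart, were called in DSS, and 0 in TNBS as without it; it ended the DSS calls of Csnk2a1, Fkbp5, Cdh1 and Epcam, and kept those of Cry2, Wee1, Abcb1a and Ccl2. In DSS the same-numbered libraries correlated at -0.136, 0.043 and -0.14, which gives no sign of pairing but does not settle it. The block values in DSS are therefore an alternative setting only.

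Leaving out each library in turn gave 41 to 114 genes called in TNBS, fewest without TNBS thymopentin 1 or 3, TNBS saline 1, DSS thymopentin 3 or DSS saline 3, with 0 members and 0 other core genes throughout. In DSS it gave 916 to 2524 genes, 4 to 8 members and 0 to 2 other core genes, with 4 members without DSS thymopentin 2 or DSS saline 3 and 5 without DSS thymopentin 3 or DSS saline 1. For the difference it gave 177 to 770 genes, 0 to 2 members and 0 other core genes, fewest genes without DSS saline 3. Between models it gave 5328 to 6453 genes, 3 to 5 members and 2 to 4 other core genes under saline, and 2056 to 4008 genes, 4 to 8 members and 1 to 2 other core genes under thymopentin, where 4 members were called without TNBS thymopentin 3. Total depth per library is unknown, and with 3 libraries a group the spread sets the precision.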
